A study of Homo sapiens with 8 samples.

Results

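The response of HCT116 colon cancer cells to the small molecule P2 was compared between cells with and without p53, to find the genes on which P2 acted differently in the 2 genotypes. HCT116 is an established human colorectal carcinoma line, and the p53-/- derivative lacks the p53 gene while p53+/+ is its labelled counterpart. The targeted gene is not analysed here, so these genotype labels were not checked against its level. Each genotype was profiled untreated and after P2 at 25 µM, with 2 Illumina expression arrays per group and 8 arrays in all. The labels name no solvent for the untreated cells, no treatment time and no separate cultures, so the p-values reflect array-to-array spread alone, part of which may be technical. The quantity described throughout is the response difference: P2 minus untreated in p53+/+ cells, minus P2 minus untreated in p53-/- cells, in log2 units of intensity, where 1 unit is a doubling. A positive value means that the P2 effect was higher in p53+/+ cells. All probes with a detection p-value under 0.05 on at least 2 arrays entered, which kept 10932 of 16922 genes with 14574 of 24526 probes.

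The transcription factor p53 is stabilised under stress and binds a response element made of adjacent half-sites, switching on genes for cell cycle arrest and death. CDKN1A, which encodes the cyclin-dependent kinase inhibitor p21, and MDM2, which encodes the ubiquitin ligase that degrades p53 and so closes a feedback loop, are its best known targets. In HCT116 cells the deletion of p53 is widely used to ask whether a compound acts through it. The response difference equals the genotype gap (p53+/+ minus p53-/-) in treated cells minus the same gap in untreated cells. For each gene the treated arrays were taken to carry it where the treated gap made up at least 0.667 of it, the untreated arrays where that share was at most 0.333, and both otherwise.

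The promoters of both reporter genes are shown because the results on p53 targets turn on them. Both windows run from 250 bases before to 50 bases after a transcription start annotated by RefSeq on GRCh38.p14, on the + strand, and capitals mark a p53 response element. The element was searched by the consensus of the p53 response element, made of adjacent half-sites, with at most 1 mismatch in each. It reads the same on both strands.
MDM2, chr12:68808767-68809066: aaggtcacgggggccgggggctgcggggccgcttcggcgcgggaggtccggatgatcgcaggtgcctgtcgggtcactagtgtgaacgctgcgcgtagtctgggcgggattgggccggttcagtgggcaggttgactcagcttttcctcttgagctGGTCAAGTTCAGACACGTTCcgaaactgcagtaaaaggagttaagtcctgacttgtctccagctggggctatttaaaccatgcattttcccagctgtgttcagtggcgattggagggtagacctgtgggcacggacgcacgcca
CDKN1A, chr6:36678464-36678763: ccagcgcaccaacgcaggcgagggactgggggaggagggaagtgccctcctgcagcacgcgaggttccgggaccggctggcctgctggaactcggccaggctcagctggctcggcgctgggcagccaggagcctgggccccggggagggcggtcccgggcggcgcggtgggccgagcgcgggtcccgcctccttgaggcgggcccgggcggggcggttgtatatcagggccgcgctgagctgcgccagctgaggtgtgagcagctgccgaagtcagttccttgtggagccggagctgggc
The MDM2 window, that of its downstream start, held 1 element at positions 157 to 176 of the window. The windows of the upstream MDM2 start held none, and elements with more mismatches were not searched. No match was found in the CDKN1A window, which says only that these letters are not in this stretch. Among all 35116 promoter windows 136 held the element (0.387%), against 28 of 13188 windows (0.212%) of the tested genes. Of the 45 windows of the tested p53 targets 3 did (6.67%), belonging to DDB2 and MDM2. None of the windows found for the genes with the smallest p in either direction (18 and 13 windows) or for the genes with opposite P2 calls (11 windows) held it.

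The array of untreated p53-/- replicate 1 stood apart. It had the fewest detected probes, 12775 (52.1%), against 13306 to 13998 on the other arrays, and median intensities ran from 52.2 to 69.1 over the 8 arrays. Its correlation with replicate 2 was 0.989, whereas the other groups had 0.995, and the SD of the gap between replicates was 0.31 log2 in untreated p53-/- cells and 0.21 in the other groups. On that array 215 probes, of 182 genes, read at least 1 log2 lower than on replicate 2. Their median response difference was -1.18, and 117 of them had an unadjusted p under 0.05 with a negative sign and 0 with a positive sign. Across probes, the response difference and the gap between those arrays correlated at 0.48, but both use the same arrays. Where leaving out this array moved a named gene's difference by over 1.5 times, the value without it stands beside it.

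Epithelial identity was checked from markers. Of 17 epithelial and colon markers 8 were detected on all arrays, including KRT8, whose keratin fills epithelial cells, while CDX1, CEACAM6, KRT20, LGALS4, MUC2, TFF3 and VIL1 were detected on none. The summed epithelial level was 12150 to 13812 in untreated and 15768 to 17246 in treated p53-/- cells, 14249 to 14941 in untreated and 16822 to 18176 in treated p53+/+ cells. Summed fibroblast markers, 6 of 14 undetected (COL1A2 and COL3A1 among them), gave 692 to 999 in all, and were highest in treated p53+/+ cells at 941 and 999. Leukocyte markers, 9 of 15 undetected, gave 169 to 266, and endothelial markers, 6 of 11 undetected, 142 to 194. The part of these markers in the results was not tested. In such bulk RNA, fewer cells of a kind and less RNA per cell cannot be told apart.

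With the analysis used here no gene passed the test for a different P2 response in the 2 genotypes. With limma and Benjamini-Hochberg adjustment over all probes, 0 of 14574 probes (0%) reached an adjusted p under 0.05, and the smallest was 0.0739, shared by the probes of LCOR, DFFA and H4C3. That count was not stable, being 73 with the authors' deposited log2 values, 182 with intensity-trend and robust moderation, 466 with median scaling and 973 without untreated p53-/- replicate 2. At an unadjusted p under 0.05 there were 2383 probes (16.4%), 1293 positive (8.87%) and 1090 negative (7.48%), of 2034 genes. Positive probes thus made up 54.3% of them, but 26.1% after median scaling in place of quantile normalization (358 positive, 1013 negative) and 44.8% after cyclic loess, so the direction of the imbalance depended on the scaling. The median response difference was 0.02 and its 10th and 90th percentiles were -0.40 and 0.40. The median SE was 0.18 and the median half-width of the 95% interval, which is not adjusted for the number of probes, 0.41. Differences under about that size could thus not be resolved with 2 arrays per group even without adjustment. After adjustment larger ones did not pass either, as 410 probes had a difference over 1 log2 in size. Each genotype alone showed many changes, with 3706 probes (25.4%) past the same threshold in p53-/- cells and 1749 (12%) in p53+/+ cells.

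**Figure D1:**
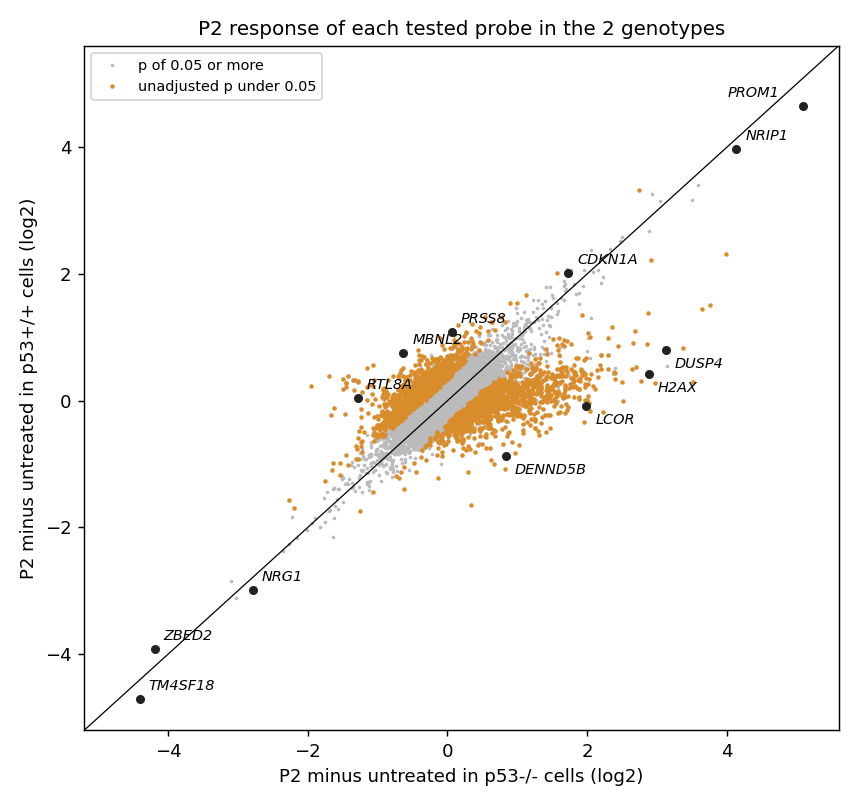
P2 minus untreated (log2) in p53-/- cells on the x axis and in p53+/+ cells on the y axis, 1 point per tested probe, orange where the response difference had an unadjusted p under 0.05. The line marks equal responses. PROM1, NRIP1, TM4SF18, ZBED2 and NRG1 lie near it at both ends, whereas LCOR, DUSP4 and H2AX lie to the right, with a rise in p53-/- cells and no called change in p53+/+ cells.

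A group of strong P2 responses was present in both genotypes. PROM1, which encodes the membrane glycoprotein prominin-1, read 4.47 and 4.49 in untreated and 9.58 and 9.58 in treated p53-/- cells, and 4.55 and 4.56 in untreated and 9.25 and 9.16 in treated p53+/+ cells. It was not detected in untreated cells, so its rises of 5.10 and 4.65 are measured log2 differences from background. The response difference of PROM1 was -0.45 (SE 0.14, 95% interval -0.76 to -0.13, limma adjusted p = 0.177), small beside either rise. NRIP1, a corepressor of nuclear receptors, rose by 4.13 and 3.97, with a response difference of -0.17 (95% interval -0.59 to 0.26). TM4SF18, a membrane protein of the L6 family, fell by 4.41 in p53-/- cells and fell by 4.71 in p53+/+ cells, with a difference of -0.31 (-0.66 to 0.05). It was detected on neither treated p53+/+ array, so its fall there and its difference have only a bound and are given as measured. SLC2A3, the glucose transporter GLUT3, fell by 2.26 in p53-/- cells and fell by 2.25 in p53+/+ cells, with a difference of 0.01 (-0.32 to 0.34).

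Along with these, EIF4E3 (a cap-binding protein), LCN2 (an iron-siderophore binding protein), CASP4 (an inflammatory caspase) and EHF (an ETS factor of epithelia) rose in both genotypes, and ZBED2, DNER, NRG1 (an ERBB ligand) and FGF9 (a growth factor) fell in both. Their response differences ran from -0.41 for FGF9 to 0.58 for EHF, whose 95% interval of 0.03 to 1.13 was the only one of these 8 to leave out 0. LCN2 was not detected in untreated cells, so its rises and its difference are measured from background. Without untreated p53-/- replicate 1 the difference of NRIP1 went from -0.17 to 0.03, that of EIF4E3 from -0.34 to -0.55, that of CASP4 from 0.33 to 0.20 and that of DNER from -0.08 to -0.18. These 12 genes, with PROM1, NRIP1, TM4SF18 and SLC2A3 among them, were taken after their values were known, as the 6 rises and 6 falls with the largest response in the genotype where it was smaller, so that the choice itself fixed their being shared. Over all probes, 1137 (7.8%) were called in the same direction in both genotypes, 459 up and 678 down. Of them 108 (9.5%) had an unadjusted p under 0.05 for the difference, against 16.4% of all probes, and 576 (50.7%) had the larger response in p53-/- cells. Of the 2560 probes called in p53-/- cells only, 1254 (49%) had such a p, and of the 603 called in p53+/+ cells only, 266 (44.1%), but these groups were formed with the same contrasts.

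CDKN1A was raised by P2 with or without p53. Its leading probe read 10.06 and 10.07 in untreated and 11.86 and 11.73 in treated p53-/- cells, and 9.91 and 10.06 in untreated and 11.98 and 12.01 in treated p53+/+ cells. Treated arrays lay above all untreated arrays in both genotypes. The rises were 1.73 (limma adjusted p = 2.59e-05) and 2.01 (8.83e-06), and the response difference was 0.28 (SE 0.15, 95% interval -0.06 to 0.62, adjusted p = 0.402). The treated arrays carried what difference there was, and the other CDKN1A probe gave -0.03 (SE 0.24), the opposite sign.

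MDM2 rose in p53+/+ cells and was not called in p53-/- cells. Its 1 tested probe read 4.80 and 5.05 in untreated and 4.82 and 4.89 in treated p53-/- cells, against 4.88 and 4.84 in untreated and 5.33 and 5.31 in treated p53+/+ cells. Both treated p53+/+ arrays lay above the other 6. P2 raised MDM2 by 0.46 in p53+/+ cells (limma adjusted p = 0.0348) and the change in p53-/- cells was -0.07 (adjusted p = 0.677). The response difference was 0.53 (SE 0.16, 95% interval 0.16 to 0.90, adjusted p = 0.174), 0.88 of it in the treated gap, so it did not pass the test. The probe was dim, being detected on 1 of 2 untreated p53-/- arrays, and the difference ran from 0.41 to 0.66 when each array was left out in turn. It was 0.34 with the authors' deposited log2 values and 0.27 with offset 50.

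The p53 targets as a list were past the unadjusted threshold as often as other genes. Counting the brightest probe of each gene, 38 of 46 targets were measured, 3 had an unadjusted p under 0.05 with a positive difference (CYFIP2, MDM2 and PRDM1) and 3 with a negative (ZMAT3, PLK2 and PHLDA3). That is 15.8%, the same as the 15.8% of all genes by their brightest probe (9.21% positive, 6.62% negative), and the median difference was 0.03 in the list and 0.03 over all genes. CYFIP2, an actin regulator of the WAVE complex, read 7.88 and 7.72 in untreated and 8.25 and 8.29 in treated p53-/- cells, and 7.82 and 7.68 in untreated and 8.997 and 8.85 in treated p53+/+ cells. It rose in both, by 0.47 and 1.17 (limma adjusted p = 0.0176 and 0.00034), with a difference of 0.70 (SE 0.16, adjusted p = 0.106) carried by the treated arrays. Its other probe gave 0.08, the same sign at a smaller size.

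TNFRSF10B, which encodes the TRAIL receptor DR5, had the smallest p of the list on a probe that is not its brightest. That probe read 6.46 and 6.66 in untreated and 6.26 and 6.03 in treated p53-/- cells, and 6.05 and 5.88 in untreated and 6.57 and 6.97 in treated p53+/+ cells. P2 raised it by 0.80 in p53+/+ cells (limma adjusted p = 0.0128) and the change in p53-/- cells was -0.42 (0.082), giving a difference of 1.22 (SE 0.22, adjusted p = 0.0762) carried by both treatments. The other probes gave 0.37, the same sign at a smaller size, and -0.01, the opposite sign. The 0.37 probe was detected on 4 arrays only and read 4.38 to 4.54 in untreated cells, so its difference is measured from background. The -0.01 probe was the brightest, at 10.06 to 10.45 over the arrays, and P2 raised it by 0.22 in p53-/- and 0.21 in p53+/+ cells. ZMAT3, an RNA-binding zinc finger protein, ran the other way at -1.53 (SE 0.33, adjusted p = 0.101). It was lower in untreated p53-/- cells (6.97 and 7.47) than on any other array (8.45 to 9.17), and the untreated arrays carried the difference.

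**Figure D2:**
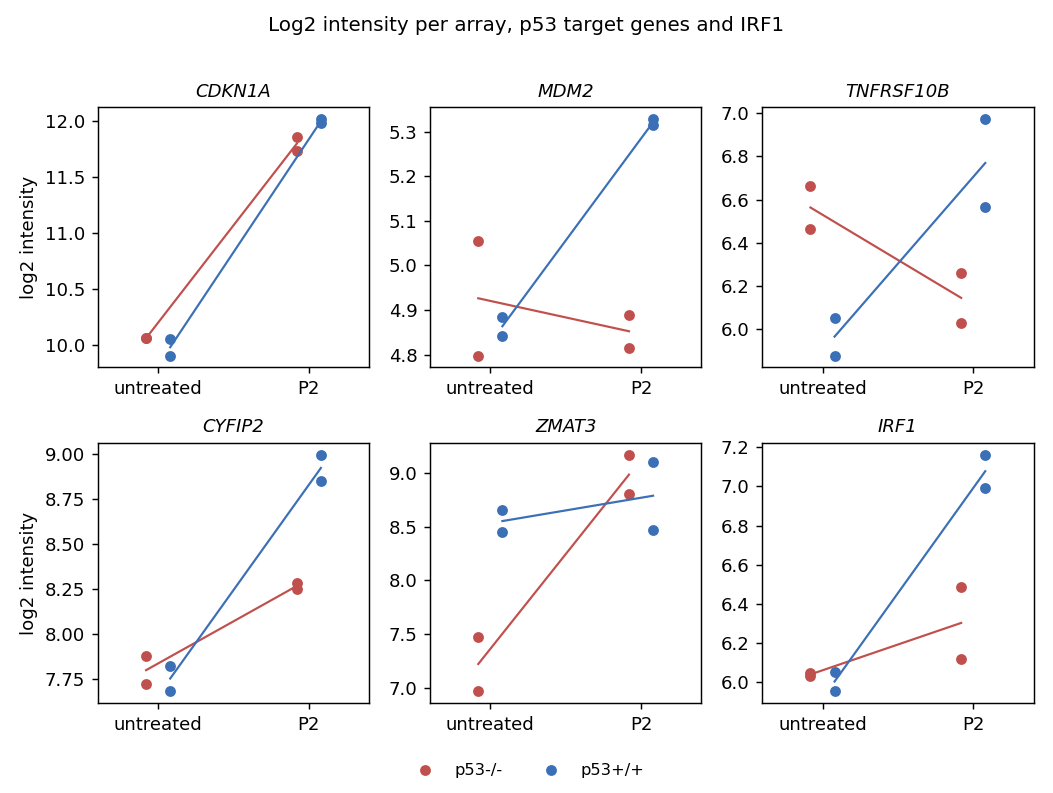
Log2 intensity per array of the p53 targets CDKN1A, MDM2, TNFRSF10B, CYFIP2 and ZMAT3 and of IRF1, untreated and after P2, red for p53-/- and blue for p53+/+, with lines joining the means of 2 arrays. CDKN1A rises in parallel, MDM2 and IRF1 part in the treated arrays only, and ZMAT3 parts in the untreated arrays. Each panel has its own y axis, not starting at 0.

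The negative differences with the smallest p came from probes that P2 raised in p53-/- cells. They rose there to, or past, a level that p53+/+ cells already had. LCOR, a ligand-dependent corepressor of nuclear receptors, read 5.90 and 5.81 in untreated and 8.09 and 7.60 in treated p53-/- cells. In p53+/+ cells it read 7.08 and 7.20 untreated and 7.18 and 6.93 treated. The untreated p53-/- arrays were the lowest of all and the treated p53-/- arrays the highest. LCOR rose by 1.99 in p53-/- cells (limma adjusted p = 0.000123) and changed by -0.08 in p53+/+ cells (0.787), a response difference of -2.07 (SE 0.23, 95% interval -2.60 to -1.55, adjusted p = 0.0739). Both treatments carried it, with gaps of 1.28 untreated and -0.79 treated, and LCOR had no other tested probe.

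H4C3, a replication-dependent histone H4 gene, and NPAT, the coactivator that drives transcription of such histone genes, were both among these 12. The H4C3 probe read 11.53 and 11.47 in untreated and 13.17 and 13.29 in treated p53-/- cells, and 12.77 and 12.73 in untreated and 13.03 and 12.61 in treated p53+/+ cells. Only the untreated p53-/- arrays stood apart, and they carried the difference of -1.65 (SE 0.20, limma adjusted p = 0.0739). Histone H4 genes encode the same protein from similar sequences, so signal from other copies cannot be told apart here. NPAT read 5.55 and 5.53 in untreated and 6.14 and 6.15 in treated p53-/- cells, against 6.19 and 6.04 in untreated and 5.83 and 5.65 in treated p53+/+ cells. NPAT rose by 0.61 in p53-/- cells (adjusted p = 0.00535) and changed by -0.37 in p53+/+ cells (0.0634), a difference of -0.98 (SE 0.16, adjusted p = 0.0762) carried by both treatments.

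DFFA, which encodes the inhibitor of the caspase-activated nuclease that fragments DNA in apoptosis, was not detected on either untreated p53-/- array (4.65 and 4.62), so its gap there is only a bound. It read 6.11 and 5.86 in treated p53-/- cells and between 5.76 and 5.82 on the p53+/+ arrays. The measured difference was -1.37 (SE 0.16, limma adjusted p = 0.0739), carried by the untreated arrays. The other DFFA probe gave 0.29 (SE 0.15) and so had the opposite sign. It was the brighter, was detected on all 8 arrays and changed by -0.13 in p53-/- cells.

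ZNF654, a zinc finger gene, was the member of the 12 with the most agreement between probes. Its leading probe read 4.84 and 4.92 in untreated and 6.24 and 5.99 in treated p53-/- cells, and 5.50 and 5.30 in untreated and 5.32 and 5.05 in treated p53+/+ cells. The difference was -1.44 (SE 0.20, limma adjusted p = 0.0762), and the other 3 probes gave -0.79, -1.49 and -1.38, all of the same sign and at least 0.5 of its size. Both treatments carried it. VHL is the substrate receptor of the ubiquitin ligase that degrades hypoxia-inducible factors. Its leading probe was the only one of the 12 carried by the treated arrays. It read 5.57 and 5.42 in untreated and 6.42 and 6.37 in treated p53-/- cells, and between 5.67 and 5.82 on all p53+/+ arrays. The difference of VHL was -0.98 (SE 0.15), and its other probes gave -1.43, which agreed, and -0.16, which was smaller. The -1.43 probe read 5.04 and 5.25 in untreated and 6.87 and 6.78 in treated p53-/- cells. In p53+/+ cells it read 6.32 and 6.31 untreated and 6.83 and 6.30 treated. On that probe the genotypes lay apart mainly in the untreated arrays, so the treated arrays did not carry its difference.

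On their named probes, the others of this direction all rose in p53-/- cells and had no called change in p53+/+ cells. UPF2, a factor of nonsense-mediated mRNA decay, had a difference of -1.39 carried by both treatments, with other probes at -0.73, which agreed, and 0.10, which opposed it. The -0.73 probe was detected on 6 arrays. The 0.10 probe was the brightest and changed by 0.05 in p53-/- cells. USF1, a basic helix-loop-helix transcription factor, had -1.16 carried wholly by the untreated arrays (treated gap -0.0045), and its other probe gave -0.45, the same sign at a smaller size. COA8, an assembly factor of cytochrome c oxidase, had -1.94 and SLTM, a transcription modulator related to SAFB, -1.98, both carried by the untreated arrays. The other SLTM probe gave 0.05, the opposite sign. It was the brighter and changed by -0.19 in p53-/- cells. SYNJ2BP, an outer mitochondrial membrane protein, had -1.50 and TAOK1, a protein kinase, -1.90, carried by both treatments, and neither these nor COA8 had a second tested probe.

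The positive differences with the smallest p were mostly of probes that fell in p53-/- cells from a higher untreated level. RTL8A, a gene derived from a retrotransposon Gag sequence, read 7.94 and 7.68 in untreated and 6.59 and 6.47 in treated p53-/- cells, and 6.84 and 6.76 in untreated and 6.83 and 6.85 in treated p53+/+ cells. The untreated p53-/- arrays stood above the rest. RTL8A fell by 1.28 in p53-/- cells (limma adjusted p = 0.000219) and changed by 0.05 in p53+/+ cells, a difference of 1.33 (SE 0.17, adjusted p = 0.0762) carried by the untreated arrays. RTL8 genes have near-identical copies, which the probe may not separate.

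JAG2, a ligand of Notch receptors, read 9.89 and 9.67 in untreated and 8.59 and 8.67 in treated p53-/- cells, and 9.31 and 9.10 in untreated and 9.19 and 9.25 in treated p53+/+ cells. It fell by 1.15 in p53-/- cells (limma adjusted p = 0.000457) and changed by 0.01 in p53+/+ cells, a difference of 1.16 (SE 0.17, adjusted p = 0.0762) carried by both treatments. The other JAG2 probe gave 0.12 (SE 0.29), the same sign at a smaller size. SYNGR1, a synaptic vesicle protein, read 6.26 and 6.22 in untreated and 5.55 and 5.54 in treated p53-/- cells, and 5.65 and 5.80 in untreated and 6.02 and 6.16 in treated p53+/+ cells. On this probe, which is not its brightest, SYNGR1 fell by 0.70 in p53-/- cells and changed by 0.37 in p53+/+ cells (adjusted p = 0.0595). The difference was 1.07 (SE 0.15), carried by both treatments, with other probes at 0.13 and 0.23. The 0.13 probe, detected on all 8 arrays, rose by 0.50 in p53-/- and 0.63 in p53+/+ cells. The 0.23 probe changed by 0.01 and 0.24.

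PRSS8, which encodes the epithelial membrane protease prostasin, was the only one of the 12 with no called change in p53-/- cells. It read 7.39 and 7.16 in untreated and 7.33 and 7.34 in treated p53-/- cells, and 7.25 and 7.14 in untreated and 8.20 and 8.36 in treated p53+/+ cells. Only the treated p53+/+ arrays stood out. PRSS8 rose by 1.08 in p53+/+ cells (limma adjusted p = 0.000729) and changed by 0.06 in p53-/- cells (0.746). The difference of 1.02 (SE 0.17, 95% interval 0.64 to 1.41, adjusted p = 0.0762) was carried by the treated arrays at a share of 0.92, and PRSS8 had no other tested probe.

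PPFIBP1, which encodes liprin beta-1, had probes that went opposite ways by similar amounts. One read 6.85 and 6.87 in untreated and 5.38 and 5.44 in treated p53-/- cells and gave 1.73 (SE 0.27), while the other gave -1.59 (SE 0.28). Both treatments carried the first, and the mean of the PPFIBP1 probes was 0.07. On their named probes, the remaining genes of this direction all fell in p53-/- cells and were carried by both treatments. They were AFMID, a kynurenine pathway enzyme (1.38), BRIP1, a DNA helicase that binds BRCA1 (1.73), TAF8, a subunit of TFIID (1.60), CCDC92 (1.11), INF2, an actin-assembling formin (1.02), SLC25A26, the mitochondrial carrier of S-adenosylmethionine (0.86), and MBNL2, a splicing regulator (1.38). The other INF2 probes gave -0.10 and -0.31, opposing it, and those of SLC25A26 gave 0.29 and 0.14, the same sign but smaller. AFMID, BRIP1, TAF8 and CCDC92 had no other tested probe. The named probes of SLC25A26 and MBNL2 are not the brightest of their genes. For BRIP1 the treated p53+/+ arrays read 5.47 and 6.19, a wide gap.

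**Figure D3:**
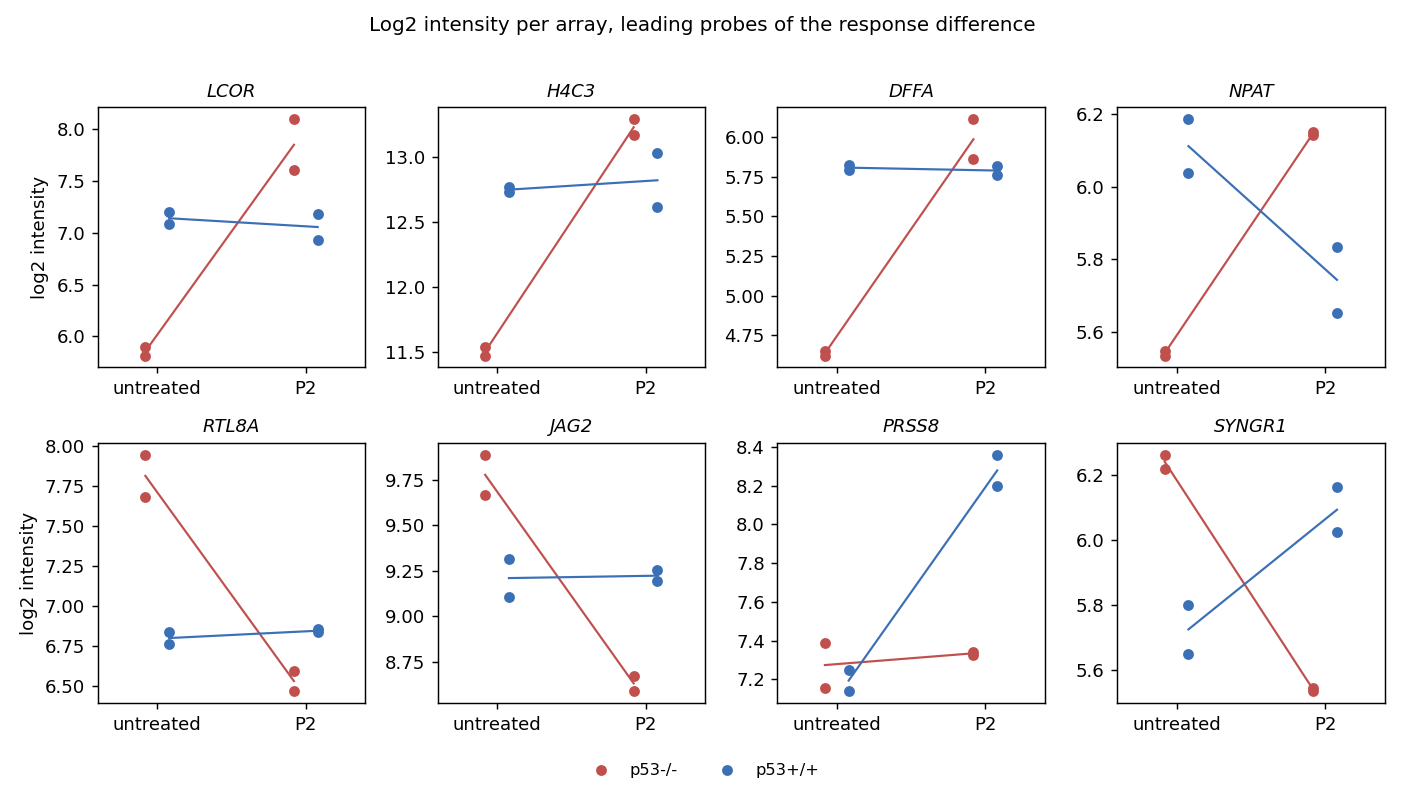
Log2 intensity per array of 4 genes with negative (top) and 4 with positive (bottom) response differences, untreated and after P2, red for p53-/- and blue for p53+/+, with lines joining the means of 2 arrays. For H4C3, DFFA and RTL8A the untreated p53-/- arrays stand apart, for PRSS8 the treated p53+/+ arrays do, and the lines of LCOR, NPAT, JAG2 and SYNGR1 cross. Each panel has its own y axis, not starting at 0.

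In 9 probes (0.0618%), 8 of them with a gene symbol, P2 was called in opposite directions in the 2 genotypes. On the called probe, MBNL2, ARFGAP2, E4F1 and TCEA2 fell in p53-/- and rose in p53+/+ cells. DENND5B, FSD1, CDK18 and ZNF562 rose in p53-/- and fell in p53+/+ cells on theirs. For MBNL2, FSD1 and CDK18 the called probe is not the brightest of the gene. E4F1, a zinc finger protein known to act on p53, read 8.59 and 8.52 in untreated and 8.27 and 8.12 in treated p53-/- cells, and 8.23 and 8.19 in untreated and 8.63 and 8.73 in treated p53+/+ cells. It fell by 0.36 and rose by 0.47 (limma adjusted p = 0.0375 and 0.0235), a difference of 0.83 (SE 0.15, adjusted p = 0.0762) carried by both treatments, and had no other tested probe. DENND5B, an exchange factor for Rab proteins, rose by 0.84 and fell by 0.87 (adjusted p = 0.0171 and 0.026), a difference of -1.71 (SE 0.29, adjusted p = 0.0762). Its arrays read 6.37 and 6.58 then 7.54 and 7.08 in p53-/- cells, and 7.70 and 7.37 then 6.90 and 6.43 in p53+/+ cells, untreated then treated.

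The MBNL2 probe read 6.17 and 6.48 in untreated and 5.74 and 5.66 in treated p53-/- cells. In p53+/+ cells it read 5.69 and 5.38 untreated and 6.40 and 6.17 treated. The gene's other probes gave 0.13 and -0.22 against its 1.38. Both were brighter and rose in p53-/- cells (by 0.28 and 0.72) and in p53+/+ cells (by 0.41 and 0.51). FSD1 had a difference of -1.56 carried by the untreated arrays, with other probes at -0.85, which agreed, and -0.12. Its untreated p53-/- arrays read 4.46 and 5.03, with 1 of them detected. The remaining differences were 0.86 for ARFGAP2, a GTPase-activating protein of Arf, 0.92 for TCEA2, a transcription elongation factor, -0.92 for CDK18, a kinase, and -1.36 for ZNF562. TCEA2 was carried by the treated arrays and the others by both. CDK18 was detected on neither untreated p53-/- array, and the other probes of CDK18 and TCEA2 gave -0.08 and -0.09. That of CDK18 changed by 0.11 in p53-/- and 0.02 in p53+/+ cells, and that of TCEA2 rose by 0.37 and 0.28.

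Among probes detected on all 8 arrays whose replicates lay within 0.3 log2 of each other in each group, 1053 of 7062 had an unadjusted p under 0.05. Over all tested probes it was 2383 of 14574 (16.4%), so the share was no higher here. Of the 1053, 780 were positive and 273 negative. The limit on replicate gaps bears on that split, since among the 2383 the median gap between untreated p53-/- arrays was -0.21 for negative and 0.09 for positive probes. RTL8A, JAG2, SYNGR1, INF2 and PRSS8 were again among the largest positive differences. HELZ2, a helicase and nuclear receptor coactivator, read 8.97 and 8.71 in untreated and 7.90 and 7.90 in treated p53-/- cells, and 8.64, 8.47, 8.66 and 8.57 in p53+/+ cells. It fell by 0.94 in p53-/- cells (limma adjusted p = 0.00131), and the treated arrays carried the difference of 1.00 (SE 0.18, adjusted p = 0.0762). AP1B1, a subunit of the clathrin adaptor AP-1, had 1.02, carried by the untreated arrays, with its other probe at 0.13. OSCAR, a receptor of the immunoglobulin superfamily, had 0.98, carried by both treatments.

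Of the negative differences that met those conditions, CTSB, the lysosomal protease cathepsin B, read 7.34 and 7.57 in untreated and 8.53 and 8.35 in treated p53-/- cells, and 8.41, 8.41, 8.55 and 8.41 in p53+/+ cells. The untreated p53-/- arrays lay below the rest and carried the difference of -0.91 (SE 0.17, limma adjusted p = 0.081), with a treated gap of 0.04. FAM161A, a ciliary protein, had -0.96, carried by the untreated arrays. NUCKS1, a chromatin-associated protein, had -0.88, PSMD11, a subunit of the 19S proteasome, -0.90, ALKBH8, a tRNA methyltransferase, -0.86, and ARLN -0.87, all carried by both treatments. ARLN was the only one of these that fell in p53+/+ cells (by 0.58, adjusted p = 0.0105) and was not called in p53-/- cells (0.29, adjusted p = 0.0777).

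In the Notch pathway, in which membrane ligands such as JAG2 trigger gamma-secretase to release the receptor's intracellular domain, 30 of 41 genes were measured. Of them 6 had an unadjusted p under 0.05 with a positive difference and 4 with a negative, 33.3% against 15.8% of all genes, with a median of 0.16 against 0.03, and 0 passed after adjustment. The positive genes were JAG2 and DLL1 (ligands), NOTCH1 (a receptor), PSEN2 and NCSTN (gamma-secretase subunits) and DTX2 (a Notch-binding ubiquitin ligase). APH1A and PSENEN, also subunits of gamma-secretase, ADAM17, a protease that cleaves the receptor, and POFUT1, which adds O-fucose to it, were negative, so the subunits of gamma-secretase went both ways. PSEN2 read 7.52 and 7.40 in untreated and 6.75 and 6.74 in treated p53-/- cells, and between 7.18 and 7.42 in p53+/+ cells, a difference of 0.82 (SE 0.16, limma adjusted p = 0.081) carried by the treated arrays, with its other probe at 0.03. POFUT1 had -1.16 (SE 0.26, adjusted p = 0.105), carried by the untreated arrays, and its other probe gave -0.08. RFNG, a fringe glycosyltransferase, had -1.50 on a probe that is not its brightest, with others at -0.07 and -0.21.

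Among interferon response genes, 21 of 26 measured genes had a difference above 0, against 55% of all genes, with a median of 0.23, but only 2 had an unadjusted p under 0.05 (7.69%), both positive. IRF1, a transcription factor induced by interferon, read 6.05 and 6.03 in untreated and 6.12 and 6.49 in treated p53-/- cells, and 5.95 and 6.05 in untreated and 7.16 and 6.99 in treated p53+/+ cells. It rose by 1.07 in p53+/+ cells (limma adjusted p = 0.00164) and changed by 0.26 in p53-/- cells (0.193), and the treated arrays carried the difference of 0.81 (SE 0.19, adjusted p = 0.117). IFITM2, a membrane protein that restricts virus entry, had 0.50, carried by the untreated arrays. IFI6 rose in both genotypes, by 0.68 and 1.11, with 0.44 carried by the treated arrays and 0.26 on its other probe.

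For DNA replication genes, 41 of 44 were measured, 6 with a positive difference at an unadjusted p under 0.05 (POLE, CDT1, E2F2, PRIM2, CHAF1A and E2F8) and 1 with a negative (GINS4), which is 17.1% against 15.8% of all genes, and the median was -0.02. PRIM2, the large subunit of primase, read 8.40 and 8.51 in untreated and 6.77 and 6.90 in treated p53-/- cells, and 7.44 and 7.45 in untreated and 6.93 and 7.73 in treated p53+/+ cells. It fell by 1.62 in p53-/- cells (limma adjusted p = 0.00133), a difference of 1.51 (SE 0.30, adjusted p = 0.0887) carried by the untreated arrays, but the treated p53+/+ replicates were 0.80 apart. CHAF1A, a histone chaperone, had 0.71 and POLE, the catalytic subunit of DNA polymerase epsilon, 0.61, both carried by the untreated arrays. In mitosis 43 of 44 genes were measured, 3 positive (CDC20, ESPL1 and PLK1) and 1 negative (TTK), or 9.3% against 15.8%, with a median of -0.04. PLK1, a mitotic kinase, fell by 0.41 in p53-/- cells and had 0.61, carried by both treatments. NUF2, a kinetochore protein, had 1.18 on 1 probe, while its other probes gave -0.16 and -0.29.

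Genes of the integrated stress response, in which ATF4 drives amino acid supply, gave 5 positive and 1 negative difference at an unadjusted p under 0.05 among 32 of 35 measured (18.8%, against 15.8% of all genes). PSPH, the last enzyme of serine synthesis, had 0.78 carried by the untreated arrays. PPP1R15A, which restores translation by dephosphorylating eIF2 alpha, fell by 0.37 in p53-/- cells (limma adjusted p = 0.0285), with a difference of 0.54 (SE 0.14, adjusted p = 0.14) carried by the treated arrays. SLC7A5, an amino acid transporter, rose by 0.45 in p53+/+ cells (adjusted p = 0.0498) and changed by 0.01 in p53-/- cells, a difference of 0.45 carried by the treated arrays. WARS1, the tryptophanyl-tRNA synthetase, had 0.40 carried by both treatments, with its other probe at -0.10. SLC7A1, an amino acid transporter too, was positive, and ATF3, a stress-induced factor, negative.

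The immediate early and ERK feedback genes had 0 positive and 5 negative differences among 34 of 38 measured (14.7%, near the 15.8% of all genes), and 12 of 34 were above 0, against 55% of all genes. DUSP6, a phosphatase that inactivates ERK, read 9.95 and 10.20 in untreated and 9.76 and 9.49 in treated p53-/- cells, and 9.95 and 10.05 in untreated and 8.92 and 8.83 in treated p53+/+ cells. It fell by 0.45 in p53-/- cells and fell by 1.12 in p53+/+ cells (limma adjusted p = 0.0356 and 0.00106), and the treated arrays carried the difference of -0.67 (SE 0.19, adjusted p = 0.154). The other DUSP6 probe gave -0.33. DUSP4, a related phosphatase, had -2.33 (SE 0.75), but its untreated p53-/- arrays read 4.47 and 6.47, and without replicate 1 the value was -1.31, carried with both replicates by the untreated arrays. JUNB, an AP-1 subunit, had -0.64 carried by the untreated arrays and -0.37 without that array. MAFF, a small Maf factor, had -0.54 on a probe that is not its brightest and was detected on neither untreated p53-/- array. The other MAFF probe, detected on all 8 arrays, gave -0.11, the same sign at a smaller size.

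Histone genes gave 0 positive and 3 negative differences at an unadjusted p under 0.05 among 26 of 49 measured (11.5%, against 15.8% of all genes), H4C3, H2AX and H1-10. H2AX, the histone variant phosphorylated at DNA breaks, read 5.33 and 8.02 in untreated and 9.77 and 9.34 in treated p53-/- cells, and between 8.99 and 9.64 in p53+/+ cells. Its difference of -2.46 (SE 0.92) was -1.11 without untreated p53-/- replicate 1, and that of H1-10, a linker histone, went from -1.15 to -0.74, both carried by the untreated arrays. H4C3 moved from -1.65 to -1.71 without it. Of the nuclear receptor coregulators 20 of 25 were measured, with 2 positive (TBL1X and PELP1) and 3 negative (LCOR, MED1 and CTBP2), or 25% against 15.8%. MED1, a Mediator subunit that binds nuclear receptors, rose by 1.44 in p53-/- cells (limma adjusted p = 0.00133) and had -1.66 (SE 0.27, adjusted p = 0.0762), carried by both treatments and -1.60 without that array. CTBP1, a corepressor, had -1.31 on a probe that is not its brightest and -0.64 without that array. With both replicates the untreated arrays carried it, and the probe was detected on 1 of 2 untreated p53-/- arrays. The other CTBP1 probes gave -0.65 and -0.17, the same sign at a smaller size.

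In the apoptosis list 30 of 35 genes were measured, with 1 positive (AIFM1, a mitochondrial flavoprotein) and 2 negative (BIRC2 and BAK1), or 10% against 15.8% of all genes. BIRC2, the inhibitor of apoptosis cIAP1, read 10.40 and 10.22 in untreated and 10.24 and 10.18 in treated p53-/- cells, and 10.12 and 10.25 in untreated and 9.51 and 9.51 in treated p53+/+ cells. It fell by 0.67 in p53+/+ cells (limma adjusted p = 0.00554) and changed by -0.10 in p53-/- cells (0.535), a difference of -0.57 (SE 0.16, adjusted p = 0.143) carried by the treated arrays. BAK1, a pore-forming death effector, had -0.60, carried by both treatments. DIABLO, an antagonist of inhibitors of apoptosis, had -0.98 on 1 probe, while the others gave 0.01 and 0.37, the opposite sign.

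The heat shock list had 1 positive and 3 negative among 21 of 26 measured (19%, against 15.8% of all genes). DNAJB1, a co-chaperone of HSP70, fell by 0.74 in p53+/+ cells (limma adjusted p = 0.0223) and had -0.60, but -0.33 without untreated p53-/- replicate 1. BAG3, another co-chaperone, went from -0.55 to -0.35 without it. HSF1, the factor that induces heat shock genes, rose in both genotypes, by 1.59 and 0.99, with a difference of -0.60 that became -0.34 without treated p53-/- replicate 1. HSPA2, an HSP70 family member, fell by 0.89 in p53-/- cells and had 0.53, or 0.35 without untreated p53-/- replicate 1. The untreated arrays carried the differences of all 4, and none had another tested probe. Cholesterol genes gave 2 positive and 0 negative among 19 of 27 (10.5%). SCAP, the escort of the sterol-sensing transcription factors, fell by 0.44 in p53-/- cells and had 0.82 (SE 0.16, adjusted p = 0.088), carried by the treated arrays. PMVK, an enzyme of the mevalonate pathway, rose by 0.39 in p53+/+ cells (adjusted p = 0.0368) and had 0.50, carried by the treated arrays.

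Wnt targets gave 1 positive (NKD1) and 2 negative (SOX4 and NOTUM) among 18 of 25 measured (16.7%, against 15.8% of all genes). SOX4, a transcription factor, fell by 0.49 in p53+/+ cells (limma adjusted p = 0.0149) and had -0.34, carried by the treated arrays. The oxidative stress list gave 0 positive and 1 negative among 24 of 32 (4.17%), GCLM, a subunit of the glutathione synthesis enzyme, at -0.77, detected on neither untreated p53-/- array. In the marker lists LYZ, a lysozyme gene of myeloid and secretory cells, fell by 0.88 in p53-/- cells (adjusted p = 0.00364) and had 1.04 (SE 0.21, adjusted p = 0.0887), carried by the untreated arrays. Of the epithelial markers KRT8 had 0.48 and CDX2, an intestinal transcription factor, -0.48, which became -0.32 without untreated p53-/- replicate 1. KRT18, the keratin that pairs with KRT8, had -1.40 and -1.58 on its probes, and the first became -0.76 without that array. The second (SE 0.69) read 4.49 on that array and 6.51 on untreated p53-/- replicate 2. The untreated arrays carried the differences of all 3.

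Further list members with an unadjusted p under 0.05 had negative differences that shrank without untreated p53-/- replicate 1, and all were carried by the untreated arrays. The probe is the brightest of its gene for NOTUM only. MCM4, a subunit of the replicative helicase, read 7.32 and 8.45 in untreated p53-/- cells and went from -1.86 to -1.29, while its other probe gave -0.24. CDC25C, a phosphatase of mitotic entry, went from -0.79 to -0.52, with other probes at -0.0047 and -0.10. TAP2, a peptide transporter of antigen presentation, went from -1.23 to -0.53, with its other probe at 0.22. BMP4, a secreted ligand of the TGF-beta family, read 4.71 and 6.79 in untreated p53-/- cells and went from -1.98 to -0.92, with its other probe at -0.16. CD44, an adhesion receptor, went from -0.59 to -0.39 with others at -0.39 and -0.03, and NOTUM, a Wnt-inactivating enzyme, from -0.70 to -0.45. Among markers of other cell types, FBLN1, a matrix protein, went from -0.95 to -0.48 with other probes at 0.24 and 0.22. By their brightest probe all 5 measured fibroblast markers had a difference above 0 (median 0.29), with 0 at an unadjusted p under 0.05. CD68, a lysosomal protein of macrophages, went from -0.70 to -0.50 with another at 0.02. CD68 was detected on neither untreated p53-/- array.

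Which arrays carried the differences depended on their sign. Of the 2383 probes with an unadjusted p under 0.05, the untreated arrays carried 986 (41.4%), the treated arrays 479 (20.1%) and both 918 (38.5%), whereas over all tested probes the shares were 44.3%, 37.6% and 18.1%. Among positive probes the untreated arrays carried 370 (28.6%) and the treated arrays 348 (26.9%). Among negative probes the untreated arrays carried 616 (56.5%) and the treated arrays 131 (12%). The genotype gaps had opposite signs in untreated and treated cells for 86.2% of the 2383, against 47.3% of all probes, and the larger response was that of p53-/- cells for 72.3%, against 58.5%. Since the choice of probes by their p uses the same arrays, these shares are descriptions. The median P2 effect of the positive probes was -0.37 in p53-/- and 0.18 in p53+/+ cells, and that of the negative probes 0.71 and -0.04.

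Differences over 1 log2 were mostly negative, 355 probes against 55. Of those 355, of 308 genes, 274 were carried by the untreated arrays, and 290 had a P2 effect over 1 log2 in p53-/- cells, with a median of 1.42 there and 0.10 in p53+/+ cells. The untreated p53-/- replicate 1 was at least 1 log2 below replicate 2 for 140 of them. Without that replicate 161 probes were below -1 and 58 above 1. Without replicate 2 they were 575 and 86. Between genotypes, 10 probes differed in untreated cells at an adjusted p under 0.05 (0.0686%). They were those of AP1B1, ATN1, BCAM, CTSB, DFFA, RTL8A, FSD1, H4C3, LCOR and USF1. That of FSD1 was its -0.85 probe, detected on only 2 arrays. In treated cells 0 probes differed so (0%), and 2011 had an unadjusted p under 0.05 (13.8%).

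**Figure D4:**
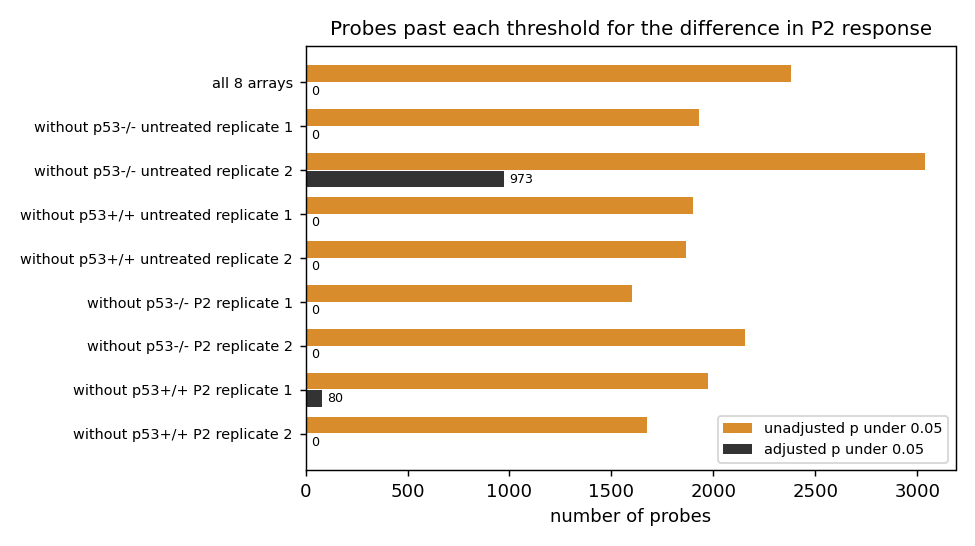
Number of probes past each threshold for the response difference with all 8 arrays and with each array left out in turn, orange for an unadjusted p under 0.05 and black for an adjusted p under 0.05. Leaving out untreated p53-/- replicate 2 gives 973 calls and leaving out treated p53+/+ replicate 1 gives 80, while the other 6 give 0.

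Arrays of the 2 genotypes often separated without passing the test. For 4587 probes (31.5%) all 4 differences between a treated and an untreated array of one genotype lay above all 4 of the other, with p53+/+ above for 2589 (17.8%) and p53-/- above for 1998 (13.7%). All the genes of both smallest-p sets were among them, but these were chosen by their p from the same arrays. CDKN1A and MDM2 were among them too. Of the genes with shared responses, PROM1, LCN2, EHF, TM4SF18 and ZBED2 were among them, LCN2 at a difference of only 0.10. NRIP1, EIF4E3, CASP4, DNER, NRG1, FGF9 and SLC2A3 overlapped.

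Other probes of most genes did not give a difference of similar size. Among the 729 probes with an unadjusted p under 0.05 whose gene had another tested probe, 243 (33.3%) had at least 1 other probe that agreed in sign with at least 0.5 of the size, and 360 (49.4%) had at least 1 that opposed. Over all 4018 tested probes with such partners these shares were 46.1% and 55.5%. Taken by gene, the smallest-p probe and another formed 820 pairs in 611 genes, of which 463 (56.5%) had the same sign and 165 (20.1%) also at least 0.5 of the size. A probe picked for its small p tends to lie far from 0, and probes of a gene may read different transcripts, which was not tested.

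**Figure D5:**
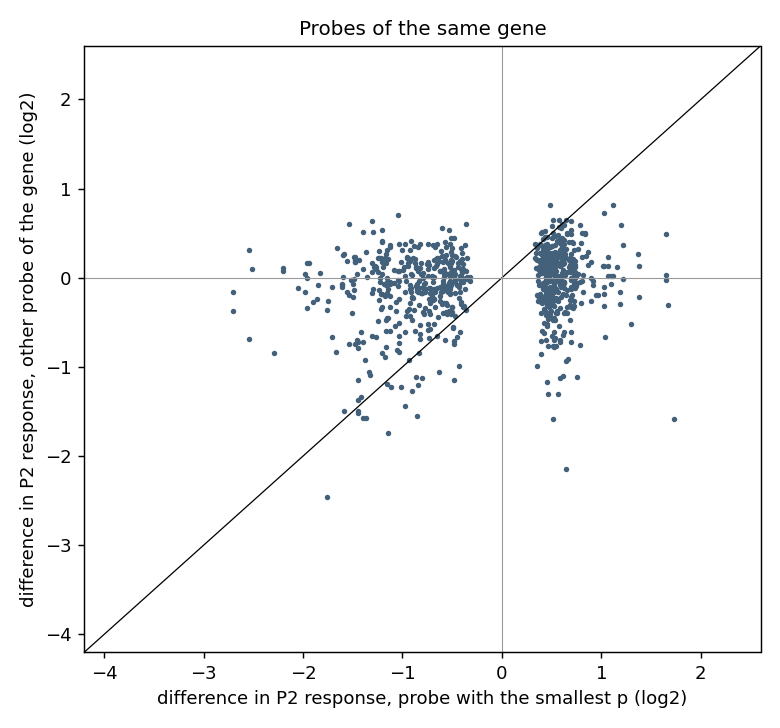
Response difference (log2) of the probe with the smallest p of each gene on the x axis and of another tested probe of the same gene on the y axis, for 820 pairs of 611 genes. The diagonal marks equal values. Most points lie nearer to 0 on the y axis than on the x axis, with 463 pairs of the same sign.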

How the data were processed

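Total RNA of 8 HCT116 samples was labelled and hybridised to 1-colour Illumina arrays, per the labels' protocols, and GenomeStudio is named in the submitters' processing notes. The deposited non-normalized table holds, per probe and array, an intensity and a detection p-value. The deposited log2 values equalled quantile-normalized log2 intensities to within 5.0e-09. No slide is given in the file headers. The aligned build of the probes is not given in the sources used here. Of the probes, 21834 had 1 gene symbol, 2692 none and 0 several, and 21813 were found in RefSeq by gene identifier.

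Intensities were background corrected with normexp from the detection p-values (offset 16), log2 transformed and quantile normalized in R 4.3.3. limma 3.58.1 (lmFit, eBayes) fitted 1 mean per group over all 8 arrays, with two-sided tests and Benjamini-Hochberg adjustment over 14574 probes. There were 4 residual and 5.15 prior degrees of freedom. The analysis was tested on simulated data. Sequences were searched in Python 3.11.15 and plots drawn with matplotlib 3.10.9. Named genes were the 12 smallest p-values in each direction, genes called oppositely by the P2 contrasts, the 8 largest differences in each direction among bright, reproducible probes, CDKN1A and MDM2, and up to 4 members of each list with the smallest p-value. Members, lists and rule were chosen with earlier results of these data known. Alternatives were the background correction, offset, normalization, filter, moderation, array weights, a replicate block, the mean over probes and leaving out each array. Precision is limited by having 2 arrays in each group. The labels do not say whether replicate numbers pair the samples. Correlations of replicate gaps ran from -0.19 to 0.20 over 6 pairs of groups. They were negative for pairs with untreated p53-/- cells and 0.10 to 0.20 for the others. Whether arrays of the same replicate number were processed together was not tested.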

Additional observations from a re-analysis of the deposited data

How the results depend on the processing

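The count of probes with an adjusted p under 0.05 (limma) was 0 with offset 50, cyclic loess, no filter on dim probes, array weights and the replicate block, under which 2338 probes had an unadjusted p under 0.05. The labels do not say whether replicate numbers pair the samples, so the block is only a check. The count was 73 without background correction and with the authors' deposited log2 values (26 positive, 47 negative), 87 where every array had to show a detection p under 0.01 and 9198 probes were tested, 182 with an intensity trend and robust moderation, and 466 with median scaling (45 positive, 421 negative). With the mean of each gene's probes it was 3 of 10932 genes, RTL8A (adjusted p = 0.0445), LCOR and H4C3 (both 0.0387). Leaving out each array in turn gave 0 to 973 calls. It was 973 without untreated p53-/- replicate 2 (299 positive, 674 negative, 675 carried by the untreated arrays), 80 without treated p53+/+ replicate 1 and 0 without any of the other arrays. The cause was not tested. Probes with an unadjusted p under 0.05 numbered 1600 to 3036 with each array left out and 1371 with median scaling.

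Of 1945 values of 105 named probes under the alternatives, 1664 kept their direction and side of the threshold, 266 newly passed it and 15 changed sign (none passed with the main settings, so none could be lost), in 4 genes with shared responses. NRIP1 became 0.0303 without untreated p53-/- replicate 1, with a range of -0.36 to 0.0303 over arrays left out. LCN2 became -0.00094 with median scaling. DNER became 0.051 without background correction and with the authors' deposited log2 values, 0.082 with offset 50 and 0.0048 with cyclic loess, and ran from -0.20 to 0.0415 with each array left out. SLC2A3 became -0.000304 without background correction and with the authors' deposited log2 values, -0.00237 with offset 50 and -0.017 with median scaling, and ran from -0.0514 to 0.0708 with each array left out. The slide as a block was not run, since the headers give no slides. Values near background, such as those of MDM2, are limited by signal over background.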
